A study of Drosophila melanogaster with 36 samples.

Results

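The CCR4-NOT complex removes poly(A) tails from mRNAs in the cytoplasm, which ends their translation and starts their decay. It is the main deadenylase of animal cells, and in the early Drosophila embryo RNA-binding proteins such as Smaug, Nanos, Pumilio and Brain tumor bring it to maternal mRNAs, which the mother loads into the egg and the embryo clears as its own genome becomes active. The mRNAs of 7 of its subunits are described here, chosen by gene symbol from the known make-up of the complex, out of 10226 genes listed in at least 1 of 3 time windows. All 7 were listed in all 3 windows and passed every filter on low values. The enzymes are encoded by twin, the fly Ccr4, and Pop2, the fly Caf1. Not1 encodes the scaffold on which the other subunits assemble, Not3 and Rga, also known as Not2, encode the module bound near its end that contacts regulators and targets, and Not10 and Not11 encode the pair bound near its start.

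Embryos of Drosophila melanogaster were collected in windows of 0-1h, 1-2h and 2-3h from egg laying, for 2 genotypes, and RNA from pools of their sucrose gradients was sequenced to profile polysomes across the transition from maternal to zygotic control. The wild-type embryos were w1118, which the labels call the pre-injected control, and the orb2-delta-zz embryos carry a form of orb2 named for its ZZ domain, a zinc-binding part of this RNA-binding protein. Both came from flies kept at 25 °C, and both were lysed at 0.5 g of embryos per mL with cycloheximide at 0.5 mg per mL, which holds ribosomes on mRNA, before a 15% to 45% sucrose gradient. Pools 1 and 3 of each gradient were sequenced with 3 replicates of each combination, which gave 12 groups and 36 libraries, and the position of a pool along the gradient is not among the labels. Nor do the labels tell whether replicates came from separate collections, so p-values measure the spread between these samples, which may be technical, and in whole embryos fewer cells with an mRNA and less of it per cell cannot be told apart.

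The deposited tables hold TPM, an abundance corrected for transcript length, which allows levels of different genes to be compared, and normalized counts, which are scaled to a common level within a window. The libraries summed to 2.16e+07 to 4.73e+07 normalized counts and 983911 to 998618 TPM over the listed genes, and no read counts are given, so the depth in reads is unknown and no counting interval is stated. The normalized counts set the typical gene about equal in both pools, and on the TPM scale every pool 3 to pool 1 log2 ratio is higher by about 1.38 at 0-1h, 1.83 at 1-2h and 2.50 at 2-3h. The targeted gene orb2 was listed in every library, at 30.7 to 32.5 TPM in wild-type and 23.2 to 27.7 TPM in orb2-delta-zz pool 3 at 0-1h, and a total over the gene does not check the deletion of a part of it. In pool 3 orb2 was at 28.0 to 31.2 TPM in wild type and 24.5 to 27.2 TPM in orb2-delta-zz at 1-2h. At 2-3h its mean in pool 3 was higher in orb2-delta-zz, 12.9 against 8.13 TPM, with overlap. The 12 maternal markers were listed in every window, and of the 12 late-embryo markers 4, 7 and 10 were listed in the 3 windows. In pool 3 the summed TPM of the late-embryo markers was far above that of the other libraries in orb2-delta-zz replicate 1 at 0-1h (476 against 3.28 to 22.8), in replicate 2 of wild type and replicate 3 of orb2-delta-zz at 1-2h (644 and 287 against 20.5 to 82.4), and in replicate 2 of both genotypes at 2-3h (1152 TPM for wild type and 1051 TPM for orb2-delta-zz against 168 to 406). Values without these libraries are given beside the results they change. None of the 7 egg-shell markers was listed in any window.

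In the Ensembl 115 annotation of BDGP6.54, used for positions since no source used here names the build of the authors, all 7 are protein-coding genes. The gene twin (FBgn0011725) spans 3R, 24196893 to 24221965, on the minus strand, with a longest transcript of 3548 nt and a protein of 567 residues. Its span, introns included as in all overlaps given here, shares 4088 nt with that of CG17786 on the same strand. Reads of any exon shared there could be split between the genes, and whether exons are shared was not looked at. The gene Pop2 (FBgn0036239) spans 3L, 11998398 to 12002915, minus strand, with 1893 nt and 361 residues, and overlaps no other gene. The scaffold gene Not1 (FBgn0085436) spans 2R, 9566146 to 9579007, minus strand. With 10068 nt and 2511 residues Not1 is the longest of the 7 in transcript and protein. The gene Not3 (FBgn0033029) spans 2R, 5656406 to 5663222, minus strand, with 3919 nt and 844 residues. The gene Rga (FBgn0017550) spans 3R, 5607275 to 5613112, minus strand, with 2902 nt and 585 residues. It shares 367 nt with sisRNA:1 on the same strand. It also shares 2012 nt with the antisense gene asRNA:ASTR, from which reads of shared exons cannot be told apart if counting ignored strand. The genes twin, Not1 and Not3 also share stretches with genes on the other strand, of which the longest in a gene other than a transposon is the 1581 nt of Not1 with Nt5c. The gene Not10 (FBgn0260444) spans 3R, 12630647 to 12633188, plus strand, with 2189 nt and 635 residues. The gene Not11 (FBgn0034963) spans 2R, 24036720 to 24037915, minus strand, and is the shortest with 1022 nt and 247 residues.

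The scaffold mRNA Not1 was the most unevenly spread of the 7 between the pools. In wild-type pool 1 its TPM in replicates 1 to 3 was 2.90, 1.60 and 1.15 at 0-1h, 2.29, 2.75 and 2.78 at 1-2h, and 4.43, 4.61 and 5.17 at 2-3h. In wild-type pool 3 the TPM of Not1 was 443, 449 and 428 at 0-1h, 477, 489 and 538 at 1-2h, and 367, 411 and 365 at 2-3h. The pools did not overlap in any window, and over all 36 libraries pool 1 stayed between 1.15 and 5.17 TPM and pool 3 between 365 and 538 TPM. On normalized counts the wild-type pool 3 to pool 1 log2 ratio of Not1 was 6.65 ± 0.21 (SE, n = 3 per pool) at 0-1h, 5.79 ± 0.15 at 1-2h and 3.87 ± 0.13 at 2-3h, with limma adjusted p of 2.9e-10, 8.9e-13 and 1.6e-10. These ratios of Not1 lay at percentiles 99.6, 99.6 and 99.4 of all genes tested. In orb2-delta-zz the ratio of Not1 was 6.31 ± 0.21, 5.10 ± 0.15 and 4.13 ± 0.13, and pool 1 held 1.74 to 5.12 TPM against 423 to 484 TPM in pool 3.

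Of the 2 catalytic subunits, twin had the ratio that moved further between windows. Its wild-type TPM in replicates 1 to 3 of pool 1 was 27.1, 19.5 and 16.2 at 0-1h, 56.3, 69.5 and 69.3 at 1-2h, and 23.5, 39.6 and 44.6 at 2-3h. In pool 3 the TPM of twin was 249.8, 328 and 297, then 298, 269 and 341, and then 92.9, 93.6 and 96.9. Every pool 3 library was above every pool 1 library of its window, and the pool 3 to pool 1 TPM ratio of twin within a gradient was 9.21 to 18.4 at 0-1h and 2.17 to 3.95 at 2-3h. On normalized counts the wild-type log2 ratio of twin was 2.50 ± 0.18 at 0-1h, 0.42 ± 0.17 at 1-2h and -1.01 ± 0.24 at 2-3h (limma adjusted p = 1.8e-07, 0.037 and 0.0027). Relative to the typical gene it thus passed from above to below. On log2(TPM + 1) its ratio at 2-3h was above 0 (1.42) but also below that of the median gene. The small ratio of twin at 1-2h was not called without wild-type replicate 1 (0.32, adjusted p = 0.23) or replicate 3 (0.28, adjusted p = 0.22), was 0.65 without replicate 2, was -0.044 with upper-quartile scaling, and had an adjusted p of 0.069 in a fit of the 6 libraries alone. In orb2-delta-zz the ratio of twin was 2.55 ± 0.18, 0.68 ± 0.17 and -1.44 ± 0.24, all past the threshold, the last 1.10 on TPM. With upper-quartile scaling that of twin at 1-2h did not pass there (0.30, adjusted p = 0.069).

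The other catalytic subunit, Pop2, lay near the typical gene at 0-1h and below it at 1-2h. Its wild-type TPM in replicates 1 to 3 of pool 1 was 158, 102 and 82.8 at 0-1h, 144, 128 and 166 at 1-2h, and 23.1, 37.9 and 42.4 at 2-3h. In pool 3 the TPM of Pop2 was 261, 243 and 232, then 217, 206 and 243, and then 128, 128 and 121. All 3 pool 3 libraries were above all 3 pool 1 libraries of the window each time. The wild-type log2 ratio of Pop2 on normalized counts was -0.17 ± 0.09 at 0-1h (limma adjusted p = 0.088), -1.19 ± 0.15 at 1-2h (adjusted p = 5.0e-06) and -0.55 ± 0.22 at 2-3h (adjusted p = 0.051). The value of Pop2 at 2-3h passed the threshold without wild-type replicate 1 (-0.76, adjusted p = 0.036) and when pools of the same replicate number were treated as a block (adjusted p = 0.0070). The orb2-delta-zz ratios of Pop2 were -0.05 ± 0.09, -1.11 ± 0.15 and -0.78 ± 0.22, of which the second and the last passed (adjusted p = 1.0e-05 and 0.0084).

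The NOT module genes differed from each other in pool ratio early and less so late. The ratio of Rga was 1.27 ± 0.10 in wild type at 0-1h and 1.17 ± 0.14 at 1-2h (limma adjusted p = 3.3e-07 and 2.7e-06), from 19.6 to 47.2 TPM in pool 1 and 169 to 207 TPM in pool 3. At 2-3h the ratio of Rga was 0.19 ± 0.15 (adjusted p = 0.31), and -0.32 with upper-quartile scaling. The ratio of Not3 was -0.08 ± 0.10, -0.51 ± 0.18 and 0.35 ± 0.22. The value of Not3 at 1-2h passed (adjusted p = 0.019), which it did not without wild-type replicate 1 (-0.45, adjusted p = 0.12), and at 2-3h it passed with pools of the same replicate number as a block (adjusted p = 0.041). In orb2-delta-zz the ratio of Rga was 1.24 ± 0.10, 1.31 ± 0.14 and 0.42 ± 0.15, and that of Not3 was -0.02 ± 0.10, -0.35 ± 0.18 and 0.62 ± 0.22. At 2-3h both passed there (adjusted p = 0.030 and 0.028), but Rga did not without any 1 of the 3 orb2-delta-zz replicates (0.38 to 0.49, adjusted p 0.057 to 0.12) and was -0.044 with upper-quartile scaling, nor did Not3 without replicate 1 (0.58, adjusted p = 0.12) or 2 (0.52, adjusted p = 0.13) or with upper-quartile scaling (0.15, adjusted p = 0.33). In a fit of the 6 libraries alone Rga did not pass either (adjusted p = 0.060). The value of Not3 at 1-2h passed without orb2-delta-zz replicate 3 (-0.51, adjusted p = 0.045) and with pools as a block (adjusted p = 0.031).

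The mRNAs of the Not10 and Not11 pair lay at or below the typical gene in pool 3. In wild type the ratio of Not10 was -1.22 ± 0.10, -1.59 ± 0.19 and -0.80 ± 0.19 in the 3 windows (limma adjusted p = 3.2e-07, 2.6e-06 and 0.0033), with 6.65 to 42.2 TPM in pool 1 and 19.2 to 32.1 TPM in pool 3. In orb2-delta-zz the ratio of Not10 was -1.12 ± 0.10, -1.66 ± 0.19 and -1.51 ± 0.19, all past the threshold. The ratio of Not11 in wild type was -0.16 ± 0.11 at 0-1h (adjusted p = 0.19), -1.73 ± 0.24 at 1-2h (adjusted p = 1.1e-05) and -0.68 ± 0.36 at 2-3h (adjusted p = 0.13). Without wild-type replicate 1 the ratio of Not11 at 0-1h passed (-0.29, adjusted p = 0.042), and with pools as a block the one at 2-3h did (adjusted p = 0.015). In orb2-delta-zz the ratio of Not11 was -0.27 ± 0.11, -1.93 ± 0.24 and -0.86 ± 0.36, of which the last had an adjusted p of 0.057. The ratio of Not11 at 0-1h, at adjusted p = 0.038, did not pass without replicate 1 (-0.28, adjusted p = 0.092), 2 (-0.25, adjusted p = 0.14) or 3 (-0.27, adjusted p = 0.10).

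Counted over the 7 genes, the pools differed for 4 in wild type at 0-1h, where 80.4% of the 7533 genes tested were called, and for 5 in orb2-delta-zz, where 80.5% were. At 1-2h 7 of the 7 were called in wild type, beside 74.0% of all genes, and 6 in orb2-delta-zz, beside 74.5%. At 2-3h 3 of the 7 were called in wild type, beside 56.4%, and 6 in orb2-delta-zz, beside 60.0%. Shares near those of all genes are no result about these mRNAs. By size, the wild-type ratios at 0-1h stood at percentile 99.6 of all genes for Not1, 88.1 for twin, 74.1 for Rga and 16.2 for Not10, with Pop2, Not3 and Not11 between 45.4 and 47.4. At 1-2h the lowest of the 7 was Not11, at percentile 13.9. With pools of the same replicate number as a block, the counts at 2-3h became 6 in wild type, where Pop2, Not3 and Not11 joined, and 7 in orb2-delta-zz, where Not11 joined (adjusted p = 0.0032). The share of all genes called with this block is not given, so these counts are no result about the 7 either.

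**Figure D1:**
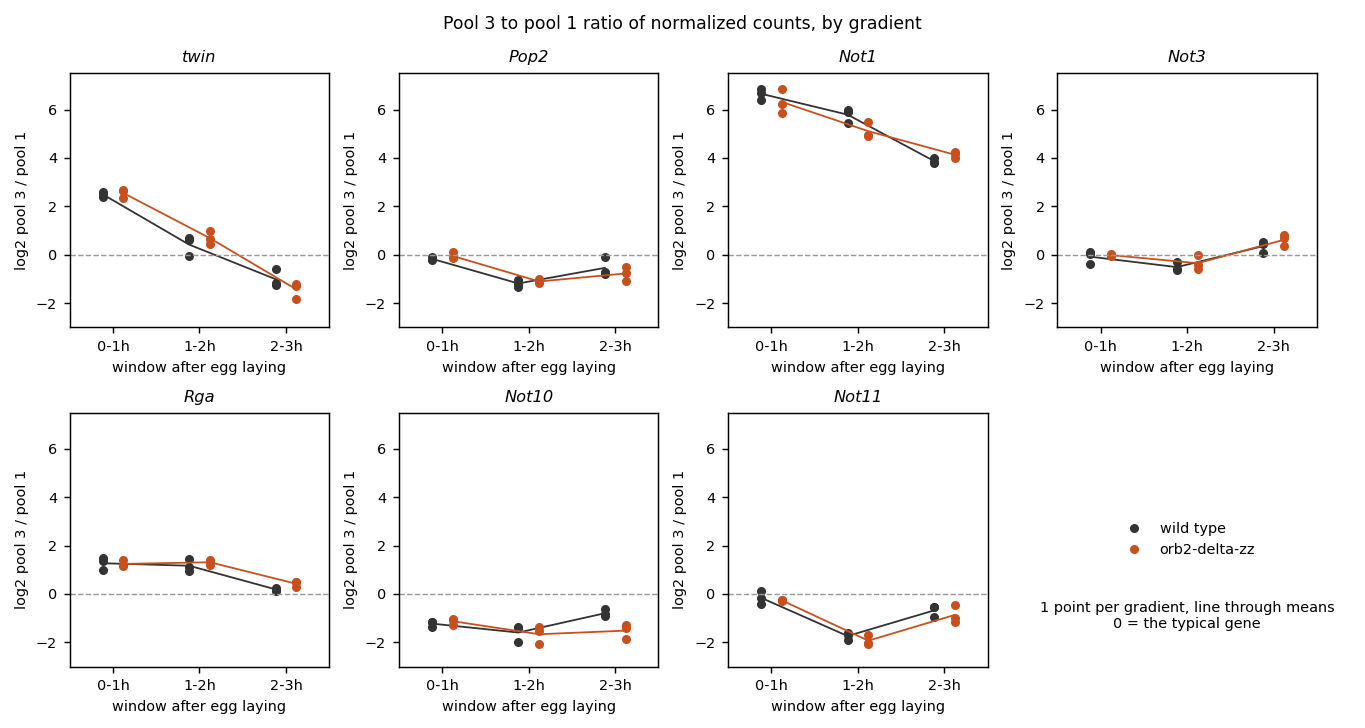
Pool 3 to pool 1 ratio of normalized counts on the log2 scale for each gradient (points, 3 per genotype and window) and the mean (lines), with the typical gene at 0. Not1 stayed between 3.79 and 6.86, twin passed from 2.33 to 2.67 at 0-1h to -1.82 to -0.60 at 2-3h, and Not10 lay below 0 in every gradient.

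On the TPM scale, where no gene is set to 0, most ratios were above 1. The pool 3 to pool 1 TPM ratio of Not1 was 70.7 to 373 over the 18 gradients and that of twin 1.50 to 18.4. That of Pop2 was 1.33 to 5.56, that of Rga 3.58 to 10.7 and that of Not3 1.38 to 11.2. The values of Not10 were 0.690 to 3.88 and those of Not11 0.720 to 4.39, and of the 7 genes these were the ones with a value under 1. So Pop2, Not3, Not10 and Not11, below the typical gene in at least 1 window on normalized counts, had means above 0 on log2(TPM + 1) except Not11 in orb2-delta-zz at 1-2h (-0.073). The median gene was also above 0 on this scale in every window and genotype. A value above 0 there does not place an mRNA above the typical gene.

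Long transcripts stood higher in pool 3 across all genes. Over the 7475 genes with an annotated length at 0-1h, Spearman's rho between the length of the longest transcript and the wild-type log2 ratio was 0.60, and it was 0.49 over 8232 genes at 1-2h and 0.36 over 9483 at 2-3h, as a description across genes that share libraries. The 251 genes of 8000 nt or more had a median log2 ratio of 4.62 at 0-1h with an upper quartile of 5.97, against 6.65 for Not1, which at 10068 nt belongs to them. The 2391 genes under 1500 nt had a median of -0.84, against -0.16 for Not11 with its 1022 nt. Among genes from 1500 to under 4000 nt the median was -0.06 with quartiles at -0.72 and 0.96, so that twin and Rga lay above the upper quartile of that class, Not10 below the lower quartile, and Pop2 and Not3 inside. At 2-3h twin, at -1.01, lay below the lower quartile of -0.85. The part of length in these ratios was not tested.

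The change of the pool ratio between 0-1h and 2-3h was tested on log2(TPM + 1), in a comparison added after the data were seen. In wild type 5 of the 7 changed, beside 65.0% of the 7294 genes tested, and in orb2-delta-zz 4 changed, beside 59.3%. The median over all genes was 0.89 for wild type and 0.74 for orb2-delta-zz. The ratio of twin fell by 2.34 ± 0.31 on the log2 scale in wild type and by 2.82 ± 0.31 in orb2-delta-zz (limma adjusted p = 1.2e-07 and 4.0e-09), at percentiles 0.617 and 0.192 of all genes. The ratio of the scaffold Not1 fell by 1.25 ± 0.20 and by 0.77 ± 0.20 (adjusted p = 3.5e-06 and 0.0014). Its mean in pool 1 went from 1.88 to 4.73 TPM in wild type and from 2.00 to 4.52 TPM in orb2-delta-zz. Changes of such low values are understated on this scale. In pool 3 its mean went from 440 to 381 TPM in wild type and from 427 to 460 TPM in orb2-delta-zz. The values of Not3 were 1.53 ± 0.34 and 1.69 ± 0.34 and those of Not10 1.44 ± 0.26 and 0.66 ± 0.26, past the threshold in both genotypes.

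Several values of this change depended on the scaling or on single libraries, while those of twin, Not1 and, in orb2-delta-zz, Not3 passed in the same direction under every alternative run. With median-of-ratios scaling of TPM, under which the median gene changed by -0.16 for wild type and -0.23 for orb2-delta-zz, the decreases of twin and Not1 passed again, while Not3 (0.32) and Not10 (0.31) did not pass in wild type and Not10 in orb2-delta-zz had the opposite sign (-0.39, adjusted p = 0.047). The value of Pop2 was 0.73 ± 0.31 in wild type (limma adjusted p = 0.039) and 0.37 ± 0.31 in orb2-delta-zz, and its sign turned with that scaling (-0.48 and -0.76). The call of Pop2 was lost in a fit of the 12 libraries alone (adjusted p = 0.083) and without any 1 of 6 of them (0.48 to 0.73, adjusted p 0.060 to 0.17), namely replicate 1 of pool 1 at 0-1h or 2-3h, replicate 2 or 3 of pool 3 at 0-1h, or replicate 1 or 2 of pool 3 at 2-3h. In orb2-delta-zz Pop2 passed without replicate 3 of pool 1 at 2-3h (0.67, adjusted p = 0.049). The call of Not10 in orb2-delta-zz was lost without replicate 1 of either pool at 0-1h or without replicate 1 or 2 of either pool at 2-3h (0.48 to 0.60, adjusted p 0.070 to 0.13).

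**Figure D2:**
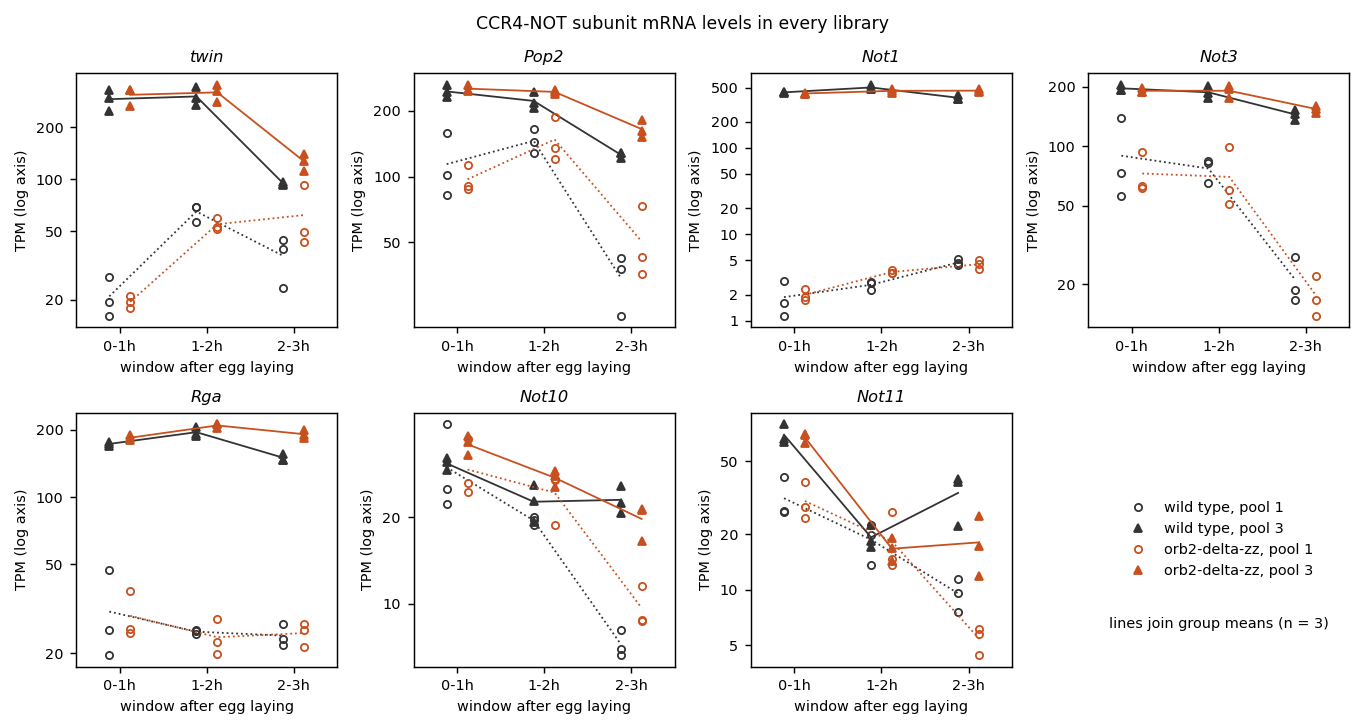
TPM on a log axis of each subunit mRNA in each of the 36 libraries, by window, with open circles for pool 1, filled triangles for pool 3, black for wild type and orange for orb2-delta-zz, and lines through the group means. The pool 3 level of twin was 92.9 to 139.6 TPM at 2-3h, below all its earlier values, and its pool 1 level was 16.2 to 27.1 TPM at 0-1h against 51.8 to 69.5 TPM at 1-2h.

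Between windows the subunit mRNAs took different courses, tested on log2(TPM + 1), which understates changes of low values such as those of Not1 in pool 1. In wild-type pool 1 between 0-1h and 1-2h, 4 of the 7 changed, beside 54.7% of all genes, whose median was -0.41. The mRNA of twin rose by 1.61 ± 0.22 (limma adjusted p = 2.9e-07), at percentile 98.3 of all genes, and all 3 libraries at 1-2h were above all 3 at 0-1h. The changes of Not1 (0.37 ± 0.14, adjusted p = 0.028), Not10 (-0.54 ± 0.19, adjusted p = 0.015) and Not11 (-0.71 ± 0.26, adjusted p = 0.019) were smaller. That of Not1 did not pass without replicate 2 (0.32) or 3 (0.18) at 0-1h or replicate 2 (0.34) or 3 (0.33) at 1-2h, with adjusted p of 0.076 to 0.26, and was 0.61 without replicate 1 at 0-1h. That of Not10 did not pass without replicate 1 at 0-1h (-0.27, adjusted p = 0.21), nor that of Not11 without it (-0.51, adjusted p = 0.13) or without replicate 2 at 1-2h (-0.52, adjusted p = 0.14). The change of Pop2, 0.40 ± 0.22, passed without replicate 1 at 0-1h (0.65, adjusted p = 0.016). The change of Rga, -0.19 ± 0.19, passed without replicate 3 at 0-1h (-0.46, adjusted p = 0.031). With median-of-ratios scaling Rga and Not3, whose value was -0.11 ± 0.24, had the opposite sign (0.23 and 0.32), and Not10 and Not11 did not pass (-0.12 and -0.30). In a fit of the 6 libraries alone Not1, Not10 and Not11 did not pass (adjusted p = 0.25, 0.22 and 0.10).

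Between 1-2h and 2-3h in wild-type pool 1, 6 of the 7 changed, beside 75.2% of all genes, whose median was -0.73. The mRNA of Pop2 fell by 2.08 ± 0.22 and that of Not3 by 1.85 ± 0.24 (limma adjusted p = 9.0e-10 and 4.1e-08). That of Not10 fell by 1.32 ± 0.19, and was -0.25 (adjusted p = 0.061) with median-of-ratios scaling, under which the median gene changed by 0.26. The values of twin, -0.88 ± 0.22, and Not11, -0.89 ± 0.26, lay close to that of the median gene, and with median-of-ratios scaling both were above 0 and did not pass (0.27 and 0.21). The mRNA of Not1 rose by 0.67 ± 0.14 (adjusted p = 0.00010), from 2.29 to 2.78 TPM to 4.43 to 5.17 TPM. The value of Rga was -0.06 ± 0.19, which was 0.67 above the median of all genes, and it was 1.09 (adjusted p = 2.4e-12) with median-of-ratios scaling.

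In wild-type pool 3 the change between the first windows passed for Not11 alone, so 1 of the 7 changed, beside 33.9% of all genes. The TPM of Not11 was 79.3, 65.6 and 63.2 at 0-1h and 18.4, 17.0 and 22.4 at 1-2h, and it fell by 1.80 ± 0.26 (limma adjusted p = 2.1e-06), at percentile 1.55 of all genes. The value of Not10, -0.44 ± 0.19 (adjusted p = 0.069), passed without replicate 1 at 1-2h (-0.54, adjusted p = 0.048). Between 1-2h and 2-3h 4 of the 7 changed, beside 59.8% with a median of -0.24. The mRNAs of the enzymes fell, twin by 1.66 ± 0.22 and Pop2 by 0.81 ± 0.22 (adjusted p = 1.4e-07 and 0.0022), and Not1 fell by 0.40 ± 0.14 (adjusted p = 0.017). The mRNA of Not11 rose by 0.73 ± 0.26 (adjusted p = 0.015), to 39.9, 22.2 and 38.6 TPM. The rise of Not11 did not pass without replicate 1 (0.59) or 3 (0.61) at 2-3h or replicate 2 at 1-2h (0.65), with adjusted p of 0.055 to 0.084. The change of Not1 did not pass without replicate 1 (-0.37) or 3 (-0.37) at 2-3h or replicate 3 at 1-2h (-0.34), with adjusted p of 0.055 to 0.073, was -0.093 with median-of-ratios scaling, and had an adjusted p of 0.064 with a pseudocount of 0.1.

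In orb2-delta-zz pool 1, 4 of the 7 changed in the first step, beside 43.7% of all genes, and 4 in the second, beside 68.8%. The mRNA of twin rose by 1.45 ± 0.22 from 19.4, 20.9 and 18.0 TPM to 59.8, 53.0 and 51.8 TPM (limma adjusted p = 2.4e-06). It then stood at 43.2, 49.7 and 93.2 TPM, a difference of 0.09 ± 0.22 that did not pass, and of 1.07 (adjusted p = 6.0e-06) with median-of-ratios scaling. In the first step Not1 rose by 0.64 ± 0.14, Not11 fell by 0.74 ± 0.26 and Pop2 rose by 0.58 ± 0.22 (adjusted p = 0.00040, 0.021 and 0.031). The change of Not11 did not pass without replicate 1 at 0-1h (-0.56) or replicate 2 (-0.62) or 3 (-0.56) at 1-2h, with adjusted p of 0.093 to 0.13, with median-of-ratios scaling (-0.37, adjusted p = 0.19), or in a fit of the 6 libraries alone (adjusted p = 0.063). The change of Pop2 did not pass without replicate 2 (0.52) or 3 (0.54) at 0-1h or replicate 1 at 1-2h (0.40), with adjusted p of 0.086 to 0.18. In the second step Pop2 fell by 1.57 ± 0.22, Not3 by 1.91 ± 0.24, Not10 by 1.24 ± 0.19 and Not11 by 1.53 ± 0.26, and with median-of-ratios scaling Not1 (1.15) and Rga (1.03) passed as well.

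In orb2-delta-zz pool 3, 1 of the 7 changed in the first step, beside 24.5% of all genes, and 3 in the second, beside 47.2%. Again Not11 fell first, by 1.95 ± 0.26 (limma adjusted p = 6.8e-07), from 69.9, 62.3 and 69.1 TPM to 19.1, 14.2 and 16.8 TPM. It then stood at 25.1, 17.2 and 11.9 TPM, and its difference of 0.06 ± 0.26 did not pass. In the second step twin fell by 1.33 ± 0.22 (adjusted p = 7.0e-06), Pop2 by 0.57 ± 0.22 (adjusted p = 0.034) and Not10 by 0.46 ± 0.19 (adjusted p = 0.040). The change of Pop2 did not pass without replicate 1, 2 or 3 at 1-2h or replicate 1 or 2 at 2-3h (-0.58 to -0.51, adjusted p 0.061 to 0.11). That of Not10 did not pass without replicate 1, 2 or 3 at 1-2h or replicate 3 at 2-3h (-0.51 to -0.35, adjusted p 0.0501 to 0.17).

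Between the genotypes within a window at most 1 of the 7 passed in each comparison. With replicates of the same number taken as pairs 4 passed in pool 1 at 2-3h, beside 41.3% of all genes, and 2 in pool 3. The share of all genes called in pool 3 with this pairing is not given, so the count there is no result about the 7. At 0-1h 0 of 7 were called in pool 1, beside 10% of all genes, and 0 in pool 3, beside 7.58%. The log2 differences of the 7, orb2-delta-zz minus wild type, lay within -0.09 to 0.31 (pool 1) and -0.03 to 0.24 (pool 3). An unadjusted p under 0.05 in limma was reached by 0 and 1 of the 7, beside 1593 and 1209 of the 7533 genes tested. The 95% intervals were -0.35 to 0.46 in pool 1 and -0.30 to 0.51 in pool 3 for twin, and -0.25 to 0.13 and -0.13 to 0.25 for Pop2. Without orb2-delta-zz replicate 1, the gradient with high late-embryo markers, Not1 passed in pool 1 (0.61, adjusted p = 0.023) and Not10 in pool 3 (0.34, adjusted p = 0.033).

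At 1-2h 1 of 7 was called in pool 1, beside 11.4% of all genes, and 0 in pool 3, beside 8.57%. The called gene was Not1 in pool 1, where the normalized counts of the 3 wild-type replicates were 1247, 1497 and 1383 and those of orb2-delta-zz 1725, 2250 and 2237. The groups did not overlap, and the log2 difference of Not1 was 0.58 ± 0.15 (limma adjusted p = 0.026), beside a median of 0.11 over all genes. In pool 3, where its TPM was far higher, the difference of Not1 was -0.10 ± 0.15 (95% interval -0.43 to 0.23). The call in pool 1 was lost without wild-type replicate 1 (0.51, adjusted p = 0.14) or 3 (0.59, adjusted p = 0.051), or without orb2-delta-zz replicate 2 (0.52, adjusted p = 0.16) or 3 (0.52, adjusted p = 0.11). It was also lost without both libraries high in late-embryo markers (0.58, adjusted p = 0.066) and with upper-quartile scaling (0.44, adjusted p = 0.079) or a fit of the 6 libraries alone (adjusted p = 0.080), and on log2(TPM + 1) the difference was 0.38 (adjusted p = 0.048). In pool 3 an unadjusted p under 0.05 in limma was reached by 0 of the 7, beside 1701 of the 8294 genes tested. First zygotic markers were lower in orb2-delta-zz in this window too. They summed to 341 to 518 TPM against 603 to 970 TPM in pool 1, and to 1441.8 to 2360.5 against 3110.8 to 4756.9 TPM in pool 3. Summed maternal markers overlapped between genotypes in both pools. The part of these markers in the result for Not1 was not tested.

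At 2-3h 1 of 7 was called in pool 1, beside 23.9% of all genes, and 0 in pool 3, beside 14.7%. The called gene was twin in pool 1, with 5897, 7823 and 9421 normalized counts in wild type and 10402, 10664 and 19022 in orb2-delta-zz. All 3 orb2-delta-zz libraries were above all 3 wild-type libraries, and the log2 difference of twin was 0.76 ± 0.24 (limma adjusted p = 0.037). In pool 3 the wild-type counts of twin were 3887, 3286 and 4130 and those of orb2-delta-zz 4531, 4362 and 5390, a difference of 0.34 ± 0.24 that did not pass (adjusted p = 0.34). The call in pool 1 was lost without wild-type replicate 1 (0.58, adjusted p = 0.18) or 3 (0.92, adjusted p = 0.051), without orb2-delta-zz replicate 2 (0.89, adjusted p = 0.055) or 3 (0.48, adjusted p = 0.15), and without replicate 2 of both genotypes, high in late-embryo markers (0.92, adjusted p = 0.064). It was also lost in a fit of the 6 libraries alone (adjusted p = 0.084) and on log2(TPM + 1) (0.74, adjusted p = 0.070). Maternal markers were also higher in orb2-delta-zz in this window, with 10 of 12 called in pool 1 and 9 of 12 in pool 3, beside 14.4% and 9.71% of all genes, at a summed 275 to 585 TPM against 88.3 to 208 TPM in wild-type pool 1. First zygotic markers were lower, with 11 of 12 called in pool 1 and 7 of 12 in pool 3, beside 9.48% and 4.97% of all genes, at a summed 1018 to 1468 TPM against 2675 to 2819 TPM in pool 1. Their part in the result for twin was not tested.

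Without pairing, the other values at 2-3h did not pass. Those of Pop2 were 0.53 ± 0.22 in pool 1 and 0.30 ± 0.22 in pool 3 (limma adjusted p = 0.095 and 0.36), and those of Not10 0.41 ± 0.19 and -0.30 ± 0.19 (adjusted p = 0.13 and 0.29). The largest in size of the 7 were those of Not11, at -0.80 ± 0.36 in pool 1 and -0.99 ± 0.36 in pool 3 (adjusted p = 0.12 and 0.084). Its normalized counts in pool 3 were 465, 217 and 458 in wild type and 282, 163 and 128 in orb2-delta-zz, and the groups overlapped through wild-type replicate 2. Without that replicate Not11 passed in pool 1 (-1.03, adjusted p = 0.025) and in pool 3 (-1.35, adjusted p = 0.0089). In pool 3 Not11 also passed without orb2-delta-zz replicate 1 (-1.31, adjusted p = 0.043) and without replicate 2 of both genotypes (-1.28, adjusted p = 0.0496). On log2(TPM + 1) Not11 passed in pool 3 (-0.87, adjusted p = 0.037), as did Rga (0.35, adjusted p = 0.038), whose value was 0.27 ± 0.15. With upper-quartile scaling Not11 passed in pool 3 (-1.08, adjusted p = 0.044) and Not3 in pool 1 (-0.39, adjusted p = 0.041), where the value of Not3 was -0.25 ± 0.22. An unadjusted p under 0.05 in limma was reached by 3 of the 7 in pool 1 and 1 in pool 3. Over all genes it was reached by 3690 and 3101 of the 9554 tested.

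In pool 1 at 2-3h same-numbered libraries of the genotypes deviated together from their group means, with correlations of 0.62, 0.63 and 0.22 for replicates 1 to 3. With the replicate number as a block, 4 of the 7 passed there in place of 1. They were twin, already called, and by limma with this block Pop2 (0.53, adjusted p = 0.019), Not10 (0.41, adjusted p = 0.045) and Not11 (-0.80, adjusted p = 0.046), of which Not11 was lower in orb2-delta-zz and the others higher. With this block 41.3% of all genes were called in pool 1, in place of 23.9%. The same fit called Not11 and Rga in pool 3, where same-numbered libraries of the genotypes correlated at 0.76, 0.74 and -0.0075. The share of all genes it called in pool 3 is not given.

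**Figure D3:**
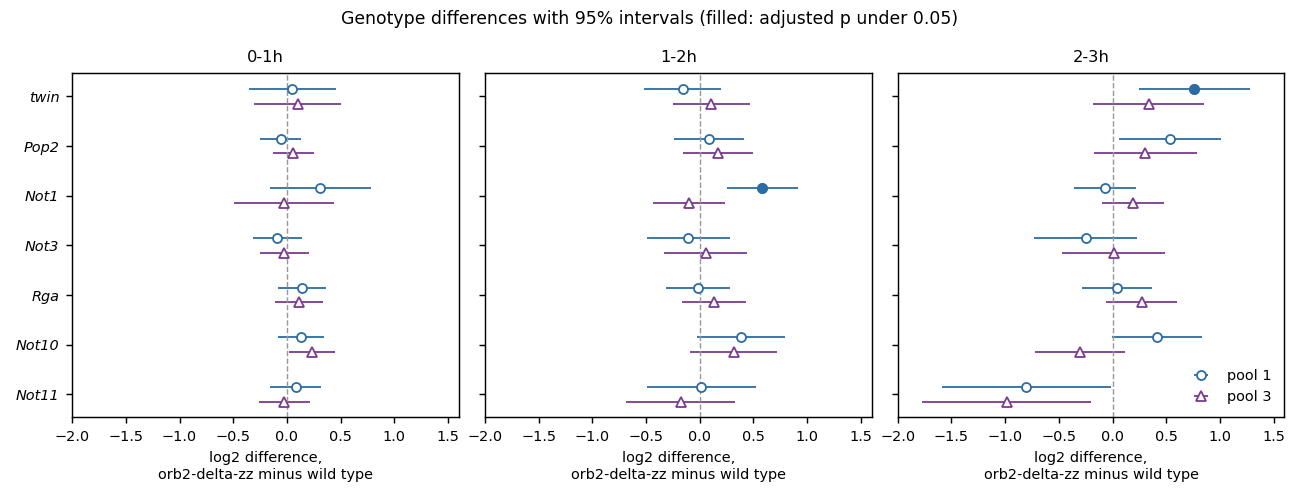
Log2 difference in normalized count, orb2-delta-zz minus wild type, of each subunit mRNA in each window with its 95% interval, for pool 1 (circles) and pool 3 (triangles), filled where the adjusted p was under 0.05. The filled points are Not1 in pool 1 at 1-2h (0.58) and twin in pool 1 at 2-3h (0.76).

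Whether the genotypes differed in the split between pools was tested as an interaction, and 0 of the 7 passed in each window, beside 0.518% of all genes in the earliest window, 0.482% at 1-2h and 0.136% at 2-3h. The genotype difference in the log2 ratio of Not1 was -0.68 ± 0.22 at 1-2h (95% interval -1.15 to -0.21, limma adjusted p = 0.37), and that of Not10 was -0.72 ± 0.27 at 2-3h (-1.31 to -0.13, adjusted p = 0.28). The log2 ratios of the 3 gradients of Not10 at 2-3h were -0.63, -0.92 and -0.84 in wild type and -1.29, -1.39 and -1.88 in orb2-delta-zz, without overlap, and with pools of the same replicate number as a block the value of Not10 passed (adjusted p = 0.035). The unadjusted p in limma was under 0.05 for 0, 1 and 1 of the 7 in the 3 windows. Over all genes tested it was so for 552 of 7533, 484 of 8294 and 1232 of 9554.

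The genotype difference in the change from 0-1h to 2-3h passed for 0 of the 7 in pool 1, beside 14.6% of all genes, and for 0 in pool 3, beside 10.6%. With median-of-ratios scaling of TPM 1 passed in pool 1 and 2 in pool 3, and a fit of the 12 libraries alone called 3 in pool 3. Shares of all genes under these settings are not given, so these counts are no result about the 7. The value of twin in pool 1 was 0.81 ± 0.31 (95% interval 0.18 to 1.44, limma adjusted p = 0.072). It passed without orb2-delta-zz replicate 1 (1.03, adjusted p = 0.022) or wild-type replicate 3 (0.99, adjusted p = 0.039) at 2-3h or wild-type replicate 3 at 0-1h (0.97, adjusted p = 0.026). The value of Pop2 in pool 1, 0.70 ± 0.31, passed without orb2-delta-zz replicate 1 at 2-3h (0.91, adjusted p = 0.043) or wild-type replicate 3 at 0-1h (0.90, adjusted p = 0.035). The value of Not11 in pool 3, -0.83 ± 0.36, passed without orb2-delta-zz replicate 1 (-1.09, adjusted p = 0.043) or wild-type replicate 2 (-1.09, adjusted p = 0.036) at 2-3h. The unadjusted p in limma was under 0.05 for 2 of the 7 in pool 1 and 1 in pool 3. Over all genes it was so for 2131 and 1906 of the 7294 tested.

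The order of the 7 levels, read on mean TPM, depended on pool and window. In wild-type pool 3 at 0-1h Not1 led with 440.0 TPM, followed by twin (292 TPM), Pop2 (245 TPM), Not3 (196 TPM), Rga (173 TPM), Not11 (69.4 TPM) and Not10 (30.8 TPM), and of these neighbours twin and Pop2 overlapped. At 1-2h the order was Not1 (501 TPM), twin (303 TPM), Pop2 (222 TPM), Rga (196 TPM), Not3 (187 TPM), Not10 (22.7 TPM) and Not11 (19.3 TPM), with overlaps between Pop2 and Rga, Rga and Not3, and Not10 and Not11. At 2-3h Not1 led with 381 TPM, then came Rga with 150.1 and Not3 with 145 TPM, which overlapped, Pop2 with 126 and twin with 94.5 TPM, and Not11 with 33.6 and Not10 with 23.0 TPM, which overlapped. In both genotypes twin thus moved from the second place in pool 3 at 0-1h to the fifth at 2-3h. In wild-type pool 1 Pop2 and Not3 were highest at 0-1h, at 114 and 89.5 TPM with overlap, and Not1 was lowest at 1.88 TPM. At 2-3h twin, Pop2, Rga and Not3 had means of 35.9, 34.5, 24.0 and 21.0 TPM there, each overlapping the next. In orb2-delta-zz pool 1 at 2-3h twin and Pop2 led with 62.0 and 50.6 TPM and overlapped.

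As shares of the summed TPM of the 7 genes, Not1 made up 0.6% ± 0.1 (SD, n = 3) in wild-type pool 1 at 0-1h and 30.4% ± 0.6 in pool 3. At 2-3h Not1 made up 3.5% ± 0.5 in pool 1 and 40.0% ± 2.1 in pool 3. The share of twin in pool 1 went from 6.8% ± 0.7 at 0-1h to 18.5% ± 2.8 and 25.9% ± 3.7, and in orb2-delta-zz from 7.1% ± 1.4 to 16.3% ± 2.1 and 34.7% ± 4.3. In pool 3 it went the other way, from 20.1% ± 2.3 at 0-1h to 9.9% ± 0.4 at 2-3h in wild type and from 21.0% ± 2.2 to 11.1% ± 0.9 in orb2-delta-zz. Shares within a sum are not independent, so a higher share of twin lowers those of the others. The sum itself was 937 to 968 TPM in wild-type and 1101 to 1175 TPM in orb2-delta-zz pool 3 at 2-3h, without overlap, against 1418 to 1498 and 1445 to 1487 TPM at 0-1h.

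**Figure D4:**
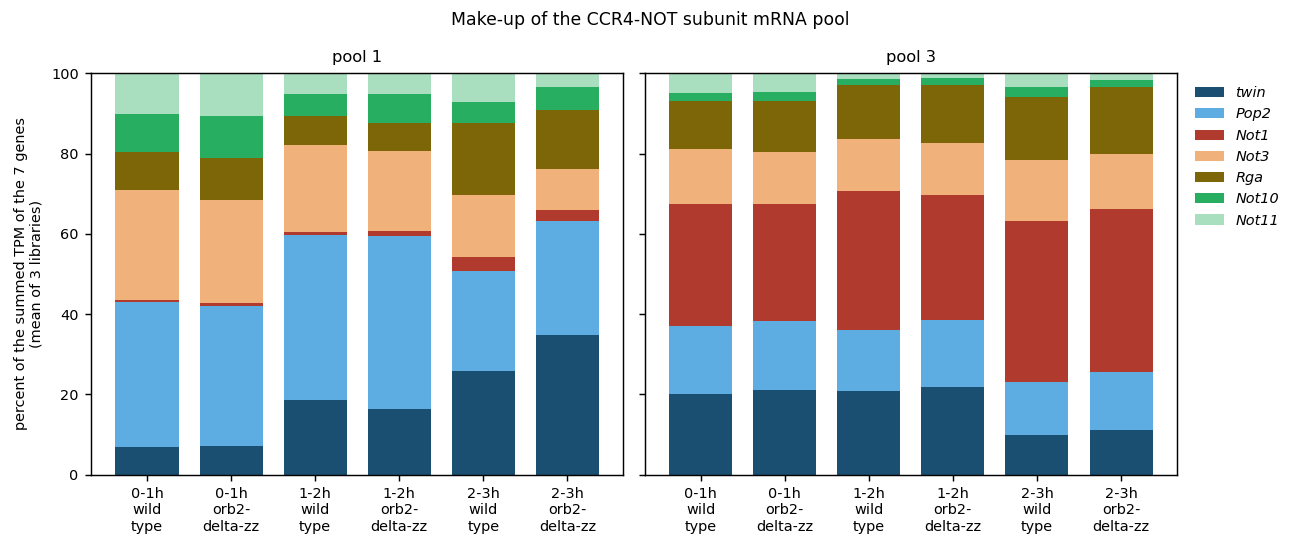
Percent of the summed TPM of the 7 subunit mRNAs that each made up (mean of 3 libraries per bar), by window and genotype, for pool 1 and pool 3. Not1 makes up 0.6% to 3.5% of the bars of pool 1 and 29.1% to 40.5% of those of pool 3, and the share of twin is largest in pool 1 at 2-3h.

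Ratios between partner subunits need no scaling between libraries. The TPM of twin over that of its catalytic partner Pop2 was 0.172, 0.192 and 0.195 in replicates 1 to 3 of wild-type pool 1 at 0-1h, 0.391, 0.545 and 0.418 at 1-2h and 1.02, 1.05 and 1.05 at 2-3h. The 3 windows did not overlap, and in pool 3 the ratio of twin to Pop2 went from 0.955 to 1.35 at 0-1h to 0.723 to 0.798 at 2-3h. In orb2-delta-zz pool 1 twin to Pop2 reached 1.16 to 1.28 at 2-3h, above all 3 wild-type libraries. The ratio of Rga to Not3 in pool 1 was 0.339 to 0.352 in wild type and 0.400 to 0.407 in orb2-delta-zz at 0-1h, and 0.976 to 1.39 and 1.23 to 1.53 at 2-3h. In pool 3 all 18 libraries had a ratio of Rga to Not3 between 0.864 and 1.35, a narrower range than in pool 1. The ratio of Not10 to Not11 in pool 3 was 0.367 to 0.508 in wild type at 0-1h, 1.02 to 1.42 at 1-2h and 0.583 to 0.938 at 2-3h, and in orb2-delta-zz 0.470 to 0.587, 1.46 to 1.80 and 0.852 to 1.39. In pool 1 at 2-3h Not10 to Not11 was 0.690 to 0.922 in wild type and 1.43 to 2.60 in orb2-delta-zz, without overlap. No test was run on these ratios.

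**Figure D5:**
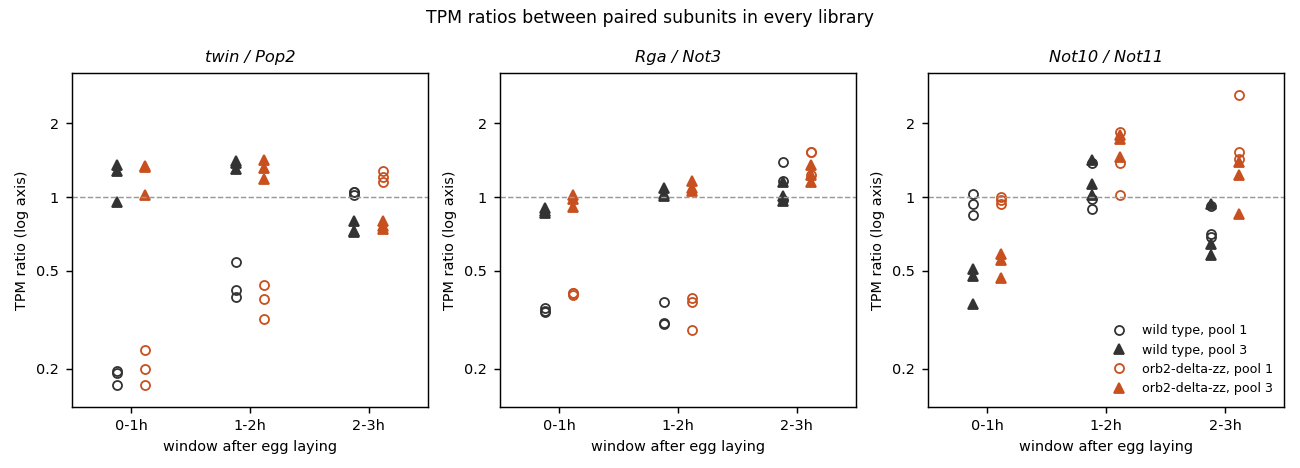
TPM ratios of twin to Pop2, Rga to Not3 and Not10 to Not11 on a log axis in each library, with open circles for pool 1 and filled triangles for pool 3. In pool 1 twin to Pop2 goes from 0.172 to 0.238 at 0-1h to 1.02 to 1.28 at 2-3h, while in pool 3 it ends at 0.723 to 0.798.

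Pearson's r of log2(TPM + 1) over the 36 libraries, a description in which the difference between pools weighs heavily, was highest among the 7 for Not1 and Rga (0.98), was 0.93 for Pop2 and Not3, and was lowest for twin and Not11 (0.32). Within the 18 libraries of pool 1 Not3 and Not10 had the highest r (0.93), and Not1 and Not11 the lowest (-0.77). Within pool 3 twin and Pop2 had the highest r (0.95), and that of twin and Not3 was 0.93. Of the 6673 genes compared, the most alike over the 36 libraries were Tango10 and drn for twin (0.99 and 0.98), Idh3g and CG8188 for Pop2 (both 0.99), RhoGAP19D and osa for Not1 (both 1.00) and rudhira and Nup214 for Rga (both 1.00). For Not3 they were FBgn0039632, named here by its identifier, and CG2865 (both 0.99). For Not10 and Not11 they were Coprox and deltaCOP (both 0.98), and CG17660 and Hs2st (0.98 and 0.97).

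The partners of the complex outside the 7 were tested in the same way. Of Rcd-1, also known as Caf40, Cnot4 and the antiproliferative protein gene Tob, Tob passed between genotypes once, in pool 3 at 2-3h (1.09 ± 0.28, limma adjusted p = 0.025). In that comparison 14.7% of all genes were called. Between 1-2h and 2-3h in wild-type pool 1 all 3 fell, Cnot4 by 1.29 ± 0.22, Tob by 1.22 ± 0.31 and Rcd-1 by 0.62 ± 0.15. Of all genes 58.1% fell there, with a median change over all genes of -0.73, so Rcd-1 fell less than the median gene. In pool 3 Tob alone of the 3 fell, by 1.58 ± 0.31, beside 40.9% of all genes that fell. Relative to the typical gene Tob was higher in pool 3 in both of the first windows and both genotypes (0.43 to 1.21).

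The other deadenylases took courses of their own. The PAN2-PAN3 enzyme, which trims long tails, had both mRNAs higher in pool 3 than the typical gene in every window and genotype, with wild-type log2 ratios of PAN2 of 2.04 ± 0.21, 2.94 ± 0.18 and 2.18 ± 0.25. In wild-type pool 1 PAN3 fell by 1.66 ± 0.24, angel by 1.33 ± 0.22 and PAN2 by 0.86 ± 0.25 between 0-1h and 1-2h. In that step 3381 of the 7294 genes tested fell, and the median over all genes was -0.41. The gene cu, which encodes the Nocturnin family member curled, fell by 3.57 ± 0.32 between 1-2h and 2-3h in pool 1 and by 3.11 ± 0.32 in pool 3. The medians over all genes there were -0.73 and -0.24. Of these 4 genes cu passed between genotypes once, in pool 3 at 0-1h (0.45 ± 0.11, limma adjusted p = 0.026), beside 7.58% of all genes called there.

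Of 18 genes for RNA-binding and repressor proteins that bring in or act with CCR4-NOT, 10 fell and 3 rose in wild-type pool 1 between 1-2h and 2-3h (median -1.01, all genes -0.73), near the 58.1% and 17.2% of all genes that fell and rose there. In pool 3, 13 fell and 0 rose (median -0.96, all genes -0.24), beside 40.9% of all genes that fell. Among them BicC, which recruits the complex in the ovary, fell (-5.41 ± 0.35 in pool 1 and -5.80 ± 0.35 in pool 3), and so did nanos, for the germline repressor Nanos (-4.42 ± 0.26 and -3.34 ± 0.26). At 2-3h 7 of the 18 were higher in orb2-delta-zz in pool 1 and 5 in pool 3, with 0 and 0 lower, beside 14.4% and 9.71% of all genes higher. These were led by BicC (1.52 ± 0.34 and 1.82 ± 0.34) and mei-P26 (1.13 ± 0.24 and 1.25 ± 0.24). The gene smg, which encodes Smaug, had a wild-type log2 pool ratio of 4.75 ± 0.35 at 0-1h. None of the 18 passed between genotypes at 0-1h or 1-2h in limma, where 7.58% to 11.4% of all genes were called.

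Of 10 maternal mRNAs known as targets of deadenylation or clearance, 4 of which are also among the 12 maternal markers, 9 fell and 0 rose in wild-type pool 1 between 1-2h and 2-3h, and 10 fell in pool 3 (medians -2.43 and -2.30), beside 58.1% and 40.9% of all genes (medians -0.73 and -0.24). In orb2-delta-zz 8 fell and 1 rose in pool 1, and 9 fell in pool 3 (medians -1.53 and -1.34), beside 54.9% and 32.7% of all genes (medians -0.64 and -0.14). At 2-3h 6 of the 10 were higher in orb2-delta-zz in pool 1 and 7 in pool 3, beside 14.4% and 9.71% of all genes. They included Nap1 (1.32 ± 0.16 and 1.35 ± 0.16) and osk (1.40 ± 0.40 and 2.04 ± 0.40), while of the 7 subunits twin passed, in pool 1. Of 11 genes for poly(A) tail synthesis and binding, 2 were higher and 1 lower in orb2-delta-zz in pool 1 at 2-3h, and 2 and 1 in pool 3, beside 23.9% and 14.7% of all genes called in either direction, so the count in pool 1 is near that of all genes. Among the called genes orb, which encodes the other fly CPEB protein, was higher (1.74 ± 0.41 and 2.04 ± 0.41) and hrg, for the nuclear poly(A) polymerase, was lower (-0.66 ± 0.18 and -0.87 ± 0.18).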

How the data were processed

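RNA from pools 1 and 3 of polysome gradients of Drosophila embryos was sequenced in 36 libraries (3 replicates of 12 groups). Libraries were made with a directional kit after rRNA depletion, per the labels' protocols, and whether counting used strand is not stated. The authors deposited, per window, normalized counts (a signal that is not whole, named in the labels as a DESeq2 output) and TPM, and the submitters' processing notes list DESeq2 1.42.1, Salmon 1.9.1 and Trim Galore 0.6.5 with no role, while no source used here names the build. Libraries held 2.16e+07 to 4.73e+07 normalized counts, and 0 columns fell outside the samples.

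From these values, limma 3.58.1 (R 4.3.3) with a trended variance was fitted within each window on log2(normalized count + 1), with genes at a mean of at least 10 and the window's 12 libraries. Changes between windows were fitted on log2(TPM + 1), for genes listed in all 3 windows with a mean of at least 1 TPM and all 36 libraries, because normalized counts are scaled within a window. Tests were two-sided, with Benjamini-Hochberg adjustment over all genes tested and a threshold of 0.05, in 27 comparisons, 2 of which (the change of the pool ratio) were added after the data were seen. The fit was tested on simulated data. Python 3.11.15, numpy 2.4.6, pandas 2.3.3 and matplotlib 3.10.9 made the summaries.

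The 7 genes and all lists were chosen with earlier results of these data known. All 7 are named in every comparison, each other list is given by its counts with up to 4 called genes of largest absolute log2 difference, and likeness is given by the 2 genes with the highest r, at a mean of at least 5 TPM. All 97 of 97 list symbols were matched. Pools with the same replicate number come from one gradient, and their deviations from the group means correlated at 0.12 to 0.83, all over 0.1, so the number pairs the pools. Between genotypes the same check held for all 3 pairs in pool 1 at 0-1h and 2-3h. The consensus correlation within a gradient was 0.134, 0.397 and 0.549 in the 3 windows. Alternatives were other pseudocounts, no filter, other scalings, TPM in place of normalized counts, blocks, smaller fits and leaving out replicates. Sequences of the genes are not shown here.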

Additional observations from a re-analysis of the deposited data

Results flagged for a closer look

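The effect of the pool, pool 3 against pool 1, differed between embryos of 0-1h and 2-3h by a test of that difference on log2(TPM + 1), which was added after the data were seen. In wild type the log2 ratio changed by -2.34 for twin, -1.25 for Not1, 1.53 for Not3, 1.44 for Not10 and 0.73 for Pop2. In orb2-delta-zz it changed by -2.82 for twin, -0.77 for Not1, 1.69 for Not3 and 0.66 for Not10. On that scale the median gene changed by 0.89 and 0.74, so twin and Not1 moved against it in both genotypes. The values of Pop2 in wild type and Not10 in orb2-delta-zz were below that median. With median-of-ratios scaling of TPM the median gene fell as well, and the decreases of twin and Not1 passed again. Under it Not3 and Not10 did not pass in wild type, and Pop2 in wild type and Not10 in orb2-delta-zz turned sign.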

How the results depend on the processing

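Over the 27 comparisons and the 7 genes, 1004 values kept their direction and their side of the threshold under another pseudocount, filter, scaling, block or choice of libraries, 51 came to pass with the same sign and 22 no longer passed. The sign changed for 57, of which 36 passed in at least 1 of the 2 fits and 21 in neither. With libraries left out (1, or the 2 high in late-embryo markers), 1063 kept both, 20 came to pass, 61 no longer passed, and 74 changed sign, passing in neither fit.

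Scaling moved the level of all genes and with it the pool ratios. On log2(TPM + 1) the median gene had a log2 ratio of 1.19, 1.56 and 2.14 in wild type and 1.30, 1.55 and 2.14 in orb2-delta-zz in the 3 windows. Ratios that were below 0 on normalized counts then turned positive, at 0-1h in wild type Not11 (1.14), Pop2 (1.15), Not10 (0.097) and Not3 (1.23) and in orb2-delta-zz Not11 (1.14), Pop2 (1.38), Not10 (0.30) and Not3 (1.41). At 1-2h the same held in wild type for Not11 (0.058), Pop2 (0.61), Not10 (0.20) and Not3 (1.28) and in orb2-delta-zz for Pop2 (0.74), Not10 (0.18) and Not3 (1.49). At 2-3h it held in wild type for Not11 (1.68), Pop2 (1.88), Not10 (1.54) and twin (1.42) and in orb2-delta-zz for Not11 (1.52), Pop2 (1.75), Not10 (0.96) and twin (1.10). With upper-quartile scaling, under which the median ratio was -0.43, -0.38 and -0.57 in wild type and -0.43, -0.31 and -0.44 in orb2-delta-zz, the signs of twin in wild type at 1-2h (-0.044) and of Rga at 2-3h (-0.32 in wild type, -0.044 in orb2-delta-zz) turned.

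With median-of-ratios scaling of TPM the median change in wild-type pool 1 moved to -0.02 and 0.26. The signs of Rga (0.23) and Not3 (0.32) in the first step and of twin (0.27), Rga (1.09) and Not11 (0.21) in the second turned there, as did the change in the pool ratio of Rga (-1.17) and Pop2 (-0.48) in wild type and of Rga (-0.84), Pop2 (-0.76) and Not10 (-0.39) in orb2-delta-zz.

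Counts of called subunits moved as follows, and the cause was not tested. Shares of all genes called under the same settings are not given beside the counts here and below. The counts therefore describe the settings and are no result about these mRNAs. The pool ratio in wild type at 0-1h called 7 in place of 4 with upper-quartile scaling, and at 2-3h 7 on TPM and 6 with upper-quartile scaling in place of 3. Between genotypes in pool 1 the count at 1-2h went from 1 to 0 with upper-quartile scaling and to 0 in a fit of the 6 libraries alone, and at 2-3h from 1 to 0 on TPM, 2 with upper-quartile scaling and 0 in the fit of 6. In pool 3 at 2-3h it went from 0 to 2 on TPM and 1 with upper-quartile scaling. Between 0-1h and 1-2h the count went from 4 to 1 in wild-type pool 1 in the fit of 6, from 1 to 3 with median-of-ratios scaling and 2 in the fit of 6 in wild-type pool 3, and from 1 to 2 and 3 in orb2-delta-zz pool 3. In orb2-delta-zz pool 1 between 1-2h and 2-3h it went from 4 to 7 with median-of-ratios scaling. The genotype difference in the change called 1 in pool 1 and 2 in pool 3 with that scaling, and 3 in pool 3 in a fit of the 12 libraries alone, in place of 0.

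With single replicates left out, the counts of called subunits between genotypes ran over 0 to 1 in pool 1 and 0 to 1 in pool 3 at 0-1h, 0 to 1 in pool 1 at 1-2h, and 0 to 2 in pool 1 and 0 to 1 in pool 3 at 2-3h. Those of changes between windows ran over 2 to 4 in wild-type pool 1 and 1 to 2 in pool 3 in the first step, 2 to 4 in wild-type pool 3 and 1 to 2 in orb2-delta-zz pool 3 in the second, and 0 to 2 in pool 1 and 0 to 1 in pool 3 for the genotype difference in the change. Settings without 2 libraries high in late-embryo markers, and all alternatives of the change in the pool ratio, were chosen after seeing the data.

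With pools of one gradient as a replicate block, the number called went from 3 to 6 for the wild-type ratio at 2-3h and from 0 to 1 for the interaction at 2-3h, and beside the calls named above (Not3, Pop2, Not11 and Not10) the block changed no other call. Same-numbered replicates of the genotypes correlated over 0.1 in all 3 pairs in pool 1 at 0-1h and 2-3h, where the number as a block changed no call at 0-1h, and the calls it added at 2-3h (4 in place of 1) are given above. In pool 3 and at 1-2h not all pairs did so (-0.74 to 0.76). In pool 3 at 2-3h the correlations were 0.76, 0.74 and -0.0075, and 4 of 6 libraries correlated best with their own number. Whether the number pairs the genotypes there is thus not settled. With the replicate number as a term, Not11 (-0.99, adjusted p = 0.025) and Rga (0.27, adjusted p = 0.049970) passed between genotypes in pool 3 at 2-3h (2 in place of 0), and 5 subunits for the wild-type ratio at 2-3h. The term was fitted over both pools of the window, so these calls and those in pool 1 come from the same fit. The tables hold no read counts, so no count model was run and low depth cannot be weighed gene by gene.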
